A study of Homo sapiens with 8 samples.

Results

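The genes described here are 35 genes of the ATF4 stress response and of amino acid synthesis and uptake, a list of gene names made without a threshold on these data. The list was chosen with earlier results of these data known, so its shares beside all genes describe it and do not test it. A gene was represented by the probe set annotated to it alone that had the highest mean over all 8 arrays. Of the 35 genes, 34 were measured this way, out of 18231 genes in the whole table; GPT2 was not analysed here. The 34 genes are called the members below. The samples are JVM13 cells, a long-established line of human B cells that came from a patient's prolymphocytic leukaemia. Each population held a vector that doxycycline switches on, for wild-type cyclin D1 (3 arrays), for the T286A mutant, which is more stable than the wild-type protein (3 arrays), or for no insert (empty vector, titled control, 2 arrays). All groups, the controls included, received 0.1 µg/mL doxycycline. The length of induction and the number of independently made populations per construct are not given in the sources used here. The labels also do not say whether replicates were separate cultures, so the p-values speak only of how far these samples spread, and that spread may be technical.

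ATF4 is a transcription factor whose mRNA is translated preferentially when the initiation factor eIF2 is phosphorylated, as happens when amino acids run short or unfolded proteins gather in the endoplasmic reticulum. Much of its control therefore acts on translation, which an expression array does not read. Together with C/EBP-family partners it switches on enzymes that make serine, asparagine, proline and cysteine, transporters that bring amino acids in, and regulators that dampen growth or end the response. In B cells the same programme supports proliferation and antibody secretion, both of which need amino acids.

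The induced gene checked the labels of empty vector against the constructs, but it cannot tell wild type from T286A. CCND1, which encodes cyclin D1, stood at 5.25 and 4.98 (log2) in empty vector, at 10.98, 11.13 and 11.07 with wild type and at 11.25, 10.86 and 10.95 with T286A. Of 6 B-cell markers 5 were measured, and all 5 lay above the median of all genes (5.94, log2). All 6 T and NK cell markers lay below it, as did 5 of 6 myeloid markers, ITGAM being the exception. Wild-type replicate 2 stood apart: it correlated at 0.9945 and 0.9942 with its own group, against 0.9968 between the other wild-type arrays. Calls lost without it are named below, and for members given array by array the difference between the constructs is also given without it where it moved by over 1.5 times.

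Genes bound by ATF4 often carry a composite C/EBP-ATF element, searched here as TGATGNAA on both strands, in which N is any base. RefSeq start site windows of 300 bases (GRCh38.p14; 250 bases before the start, the rest from it onwards) matched 29 of the 35 listed genes by symbol, 13 of them with more than 1 start. The element was found in at least 1 window of 9 of these 29 genes (31.0%), against 3.6% of the 14491 tested genes with a window and 3.62% of all 35116 windows. Counted by window it was in 11 of 49 member windows (22.4%). The genes were CEBPG, CHAC1, MTHFD1L, ASNS, SLC3A2, SLC7A1, SLC1A4, SLC1A5 and SLC38A1. The sequences below show the element in capitals, 5′ to 3′ on the gene's strand, with 12 bases on either side, for the 5 genes where it lay wholly before a start. In CHAC1 it lies on the opposite strand and reads as its reverse complement.
CEBPG, chr19:33374059-33374090, plus strand: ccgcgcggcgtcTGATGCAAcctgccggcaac
CHAC1, chr15:40953250-40953281, plus strand: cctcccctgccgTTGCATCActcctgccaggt
MTHFD1L, chr6:150866345-150866376, plus strand: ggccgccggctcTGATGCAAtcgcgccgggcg
ASNS, chr7:97872457-97872488, minus strand: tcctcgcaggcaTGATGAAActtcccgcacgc
SLC1A5, chr19:46784892-46784923, minus strand: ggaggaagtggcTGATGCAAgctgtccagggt

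The windows of the 3 members that passed the test in a comparison below, DDIT4, PHGDH and CTH, held no match. Their 120 bases before the start are shown so that they can be set beside the sequences above.
DDIT4, chr10:72273804-72273923, plus strand: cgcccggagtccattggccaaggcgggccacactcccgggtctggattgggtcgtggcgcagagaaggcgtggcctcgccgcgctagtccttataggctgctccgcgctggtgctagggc
PHGDH, chr1:119711814-119711933, plus strand: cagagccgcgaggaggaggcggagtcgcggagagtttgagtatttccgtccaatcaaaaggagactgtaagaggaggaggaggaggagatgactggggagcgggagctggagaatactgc
CTH, chr1:70411148-70411267, plus strand: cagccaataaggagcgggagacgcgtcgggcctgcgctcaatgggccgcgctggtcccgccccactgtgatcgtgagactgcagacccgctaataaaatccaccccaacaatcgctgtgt

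T286A was compared with wild-type cyclin D1 directly, 3 arrays against 3, a comparison that does not use the control arrays' levels. Of the 34 members, 3 were called higher with T286A and 0 lower: CTH, PHGDH and DDIT4. Calls were made with limma's moderated test where the p, adjusted by Benjamini and Hochberg's method across the whole table, was under 0.05, and all adjusted p-values below are of this kind. Among all genes 0.987% were called. At an unadjusted p under 0.05, 16 members (47.1%) were higher with T286A, against 7.16% of all genes, and 1 (CBS) was lower, against 6.46% of all genes. The median difference of the members was 0.14 (log2), against 0.00 for all genes, and 28 of 34 differences were positive. The T286A arrays lay wholly above the wild-type arrays for 15 members (44.1%), against 9.94% of all genes, and wholly below for 4, against 9.82% of all genes.

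**Figure D1:**
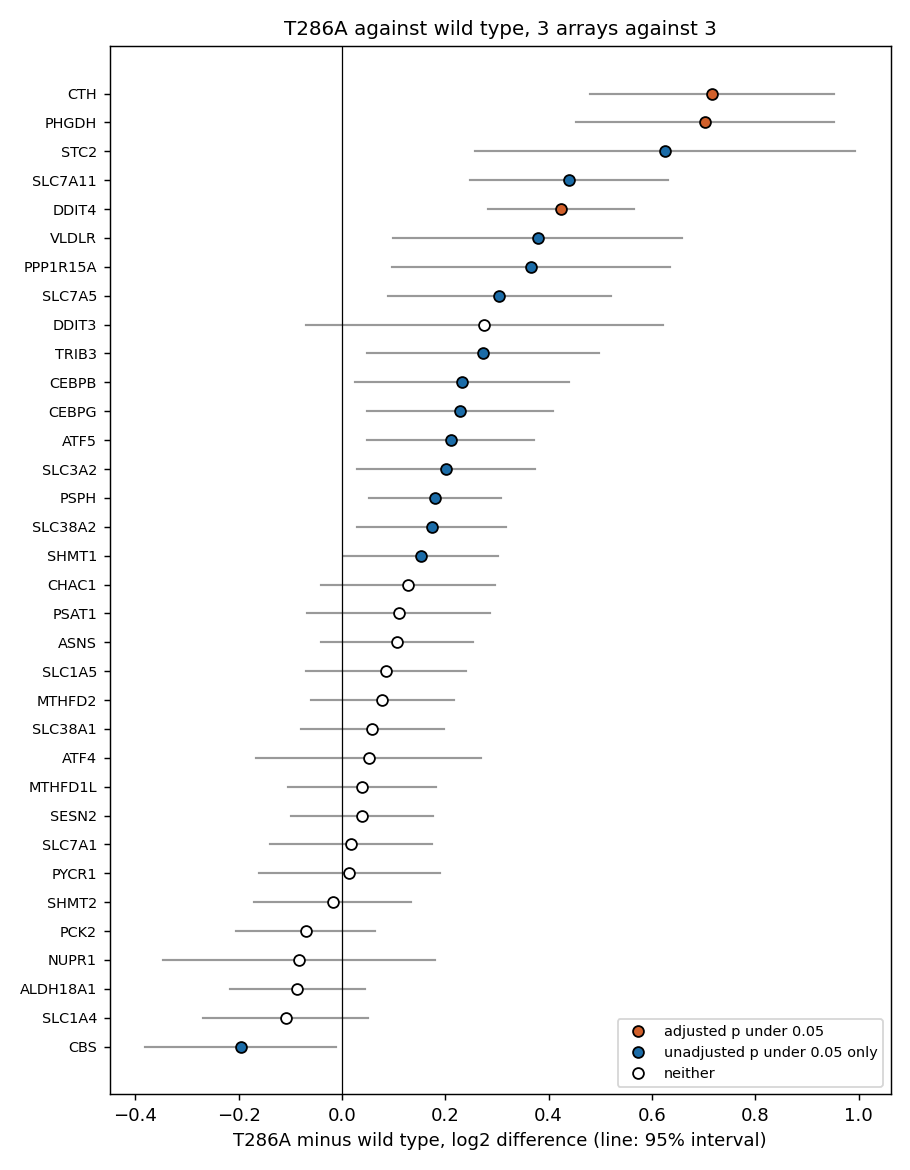
The horizontal axis gives the log2 difference T286A minus wild type for each of the 34 members (rows, ordered by size), points are estimates and lines are 95% intervals from limma over 3 against 3 arrays. CTH, PHGDH and DDIT4 (orange) passed the adjusted threshold, 14 members (blue) passed only the unadjusted one, and CBS at -0.20 is the single blue point on the left.

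The 3 calls were narrow ones. DDIT4 missed the threshold when any 1 of the 6 construct arrays was left out, with adjusted p from 0.0574 to 0.0923. CTH kept its call without wild-type replicate 2 (0.83, adjusted p = 0.00874) and missed it without wild-type replicates 1 and 3 (adjusted p = 0.0778 and 0.0553) or T286A replicates 1, 2 and 3 (0.081, 0.073 and 0.0658). PHGDH kept it without T286A replicate 2 (0.82, adjusted p = 0.0188) and missed it without wild-type replicates 1, 2 and 3 (0.098, 0.0735 and 0.0767) or T286A replicates 1 and 3 (0.103 and 0.104). The sizes stayed between 0.39 and 0.45 for DDIT4, 0.63 and 0.83 for CTH, and 0.64 and 0.82 for PHGDH. Over the 8 fits that left out 1 array each, the members' median lay between 0.127 and 0.171. In these fits 11 to 17 members passed the unadjusted threshold as higher, against 5.67% to 7.14% of all genes. With the mean of all probe sets the members' median was 0.103, and 13 members were higher at that threshold, against 7.47% of all genes. With arrays centred on housekeeping genes the median was 0.127, and 14 members were higher, against 5.86% of all genes.

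Among the transcription factors, the ATF4 transcript itself showed no difference beyond its spread. ATF4 read 12.50 and 12.25 in empty vector, 12.24, 12.50 and 12.36 with wild type, and 12.33, 12.49 and 12.42 with T286A. All 3 groups overlapped, and the constructs differed by 0.05 (T286A minus wild type, adjusted p = 0.847; 95% interval -0.17 to 0.27), or by 0.12 without wild-type replicate 2. Its single probe set is of a kind that can also read near-identical sequences.

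The partners of ATF4 varied more than ATF4 did. CEBPG, a C/EBP protein that pairs with ATF4, read 9.16 and 9.25 in empty vector, 9.14, 9.15 and 9.24 with wild type, and 9.52, 9.27 and 9.43 with T286A. The T286A arrays were the highest 3 of the 8, and T286A minus wild type was 0.23 ± 0.078 (SE, adjusted p = 0.26). A second CEBPG probe set, nearly as bright, gave -0.12 in the same comparison, so the probe sets disagreed, and their mean differed by 0.06. CEBPB, another C/EBP factor, differed by 0.23 (adjusted p = 0.317), and ATF5, which is controlled at translation like ATF4, by 0.21 (adjusted p = 0.254). From empty vector ATF5 differed by -0.24 with wild type and by -0.03 with T286A (adjusted p = 0.215 and 0.927).

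DDIT3, the pro-apoptotic factor CHOP, was dim in every array. It read 4.95 and 4.79 in empty vector, 4.62, 4.43 and 4.49 with wild type, and 4.59, 5.17 and 4.61 with T286A. The T286A values spread around T286A replicate 2, and T286A minus wild type was 0.28 ± 0.15 (adjusted p = 0.468), or 0.09 without that array and 0.11 as the mean of both DDIT3 probe sets. NUPR1, a small stress-induced chromatin protein, was also dim and differed by -0.08 (adjusted p = 0.794).

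DDIT4 was the stress effector that separated the groups most clearly. DDIT4 (REDD1) restrains the growth kinase complex mTORC1 and is induced by stress and hypoxia. It read 10.98 and 11.02 in empty vector, 10.46, 10.37 and 10.47 with wild type, and 10.81, 10.86 and 10.91 with T286A. No group overlapped another: wild type was lowest, T286A lay between, and empty vector was highest. DDIT4 fell with wild type by 0.57 ± 0.069 against empty vector, a 1.48-fold lower level (adjusted p = 0.0095), and was 0.42 ± 0.062 higher with T286A than with wild type (1.34-fold, adjusted p = 0.0198). T286A minus empty vector was -0.14 ± 0.069 (adjusted p = 0.479). The fall with wild type was not called without empty vector replicate 1 or 2 (adjusted p = 0.0835 and 0.109), nor when the fit held only the compared groups (0.0577).

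The feedback regulators gave smaller values. PPP1R15A (GADD34), which guides a phosphatase to eIF2 and so ends the response, had its 3 wild-type arrays at 7.28 to 7.75, below all T286A arrays at 7.76 to 7.94. The difference was 0.37 ± 0.12 (adjusted p = 0.23). Empty vector lay above both constructs (8.06 and 7.94). Wild type differed from it by -0.49 and T286A by -0.125 (adjusted p = 0.131 and 0.793). TRIB3, a pseudokinase that is a target and an inhibitor of ATF4, read 8.17 and 8.32 in empty vector, 7.88, 8.13 and 8.19 with wild type, and 8.44, 8.27 and 8.31 with T286A. The controls overlapped both constructs, and T286A minus wild type was 0.27 ± 0.098 (adjusted p = 0.279). It was 0.18 without wild-type replicate 1, and 0.04 in a second, dimmer TRIB3 probe set.

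CHAC1 and SESN2 did not separate the constructs. CHAC1, which breaks down glutathione, read 5.26 and 5.37 in empty vector, 5.17, 5.18 and 5.11 with wild type, and 5.39, 5.27 and 5.18 with T286A. The difference was 0.13 ± 0.073 (adjusted p = 0.487), or 0.07 without T286A replicate 1, and averaging both CHAC1 probe sets turned it to -0.07. SESN2, a leucine sensor upstream of mTORC1, differed by 0.04 (95% interval -0.10 to 0.18).

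**Figure D2:**
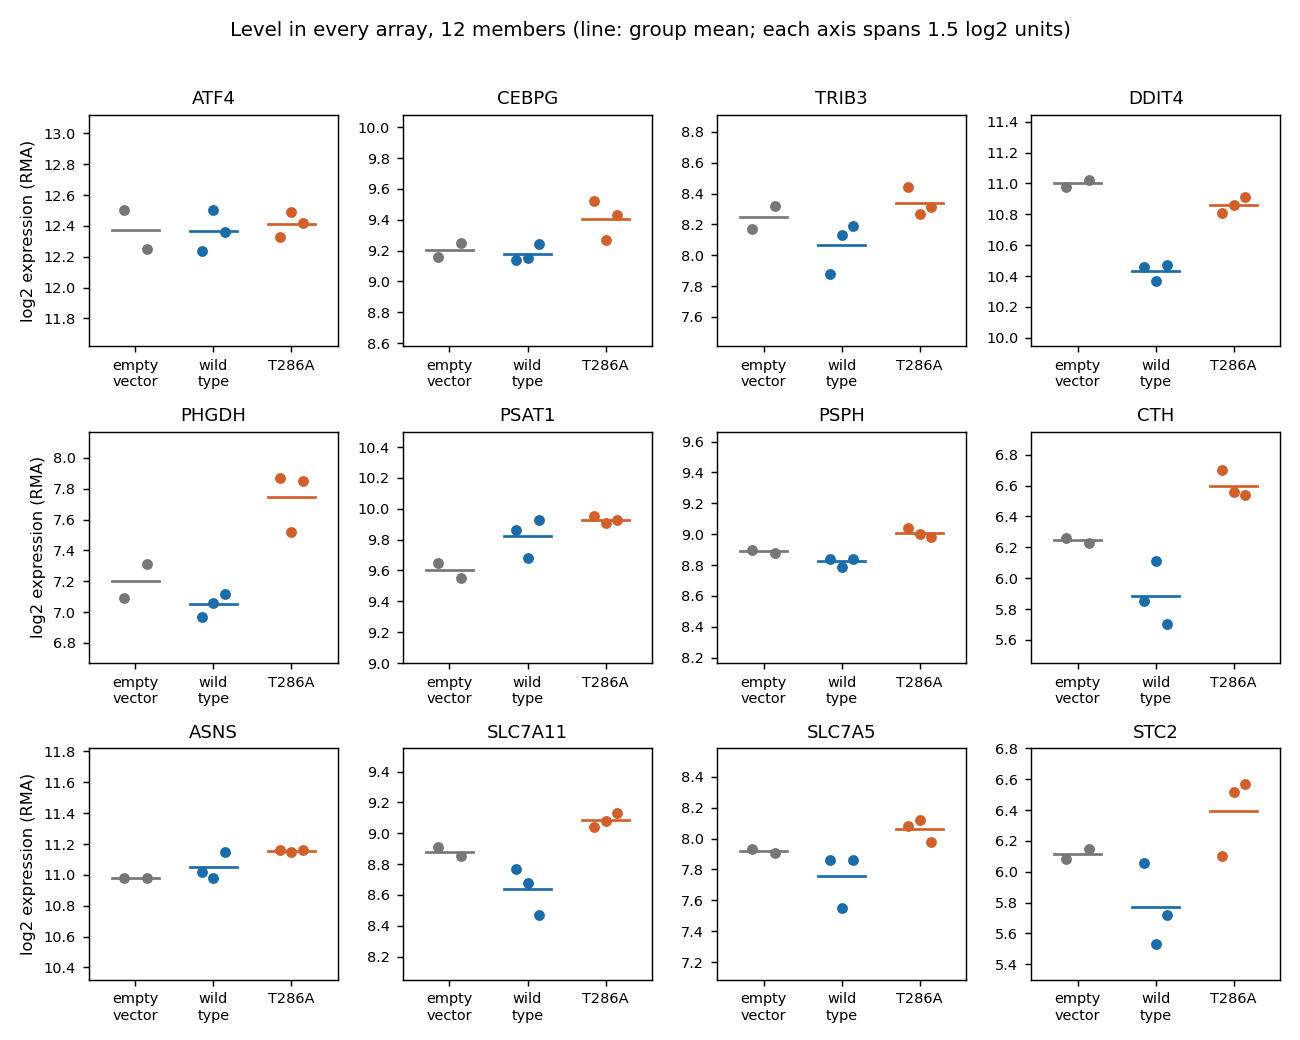
Each panel gives the deposited log2 level of 1 member (vertical axis) in the 2 empty vector, 3 wild-type and 3 T286A arrays, with points for arrays and lines for group means; every axis spans 1.5 log2 units. In CTH and SLC7A11 the empty vector arrays lie between the constructs, in DDIT4 wild type lies alone at the bottom, and in ATF4 the groups overlap.

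Of the serine pathway, its first enzyme stood out. PHGDH, which diverts a glycolysis intermediate into serine synthesis, read 7.09 and 7.31 in empty vector, 6.97, 7.06 and 7.12 with wild type, and 7.87, 7.52 and 7.85 with T286A. The T286A arrays lay above all others, and the controls overlapped wild type. PHGDH was 0.70 ± 0.11 higher with T286A than with wild type (1.63-fold, adjusted p = 0.0254). T286A minus empty vector was 0.55 ± 0.12 (adjusted p = 0.102), and wild type minus empty vector was -0.16 ± 0.12 (adjusted p = 0.652).

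PSAT1 and PSPH, which carry out the next steps to serine, differed less. PSAT1 read 9.65 and 9.55 in empty vector, 9.86, 9.68 and 9.93 with wild type, and 9.95, 9.91 and 9.93 with T286A. Both constructs lay above the controls, with differences of 0.22 ± 0.086 for wild type (adjusted p = 0.31) and 0.33 ± 0.086 for T286A (adjusted p = 0.15). T286A minus wild type was 0.11; it was 0.04 without wild-type replicate 2, 0.17 without wild-type replicate 3, and between 0.13 and 0.40 in the other 7 PSAT1 probe sets. PSPH, the phosphatase of the last step, read 8.90 and 8.88 in empty vector, 8.84, 8.79 and 8.84 with wild type, and 9.04, 9.0 and 8.98 with T286A. The controls lay between the constructs without overlap, and the difference was 0.18 ± 0.056 (adjusted p = 0.214), or 0.09 as the mean over its probe sets.

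The folate enzymes that take up the carbon released from serine showed no call. SHMT1, the cytosolic serine hydroxymethyltransferase, lay above both controls in all 6 construct arrays, by 0.21 with wild type and 0.37 with T286A (adjusted p = 0.239 and 0.0764). The mitochondrial enzymes were near 0: T286A minus wild type was -0.02 for SHMT2, 0.04 for MTHFD1L and 0.08 for MTHFD2, and the 95% interval of MTHFD2, the furthest reaching of these, ended at 0.22. MTHFD2 is a well known ATF4 target; its T286A arrays overlapped both other groups, while wild type lay just below empty vector.

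CTH gave the largest difference of the members between the constructs. CTH (cystathionine gamma-lyase) makes cysteine from cystathionine. It read 6.26 and 6.23 in empty vector, 5.85, 6.11 and 5.70 with wild type, and 6.70, 6.56 and 6.54 with T286A. The controls lay between the constructs and no group overlapped another. CTH was 0.72 ± 0.10 higher with T286A than with wild type (1.64-fold, adjusted p = 0.0185). Against empty vector the values were -0.36 ± 0.12 with wild type (adjusted p = 0.208) and 0.35 ± 0.12 with T286A (adjusted p = 0.252), neither of them called.

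CBS, which carries out the step before CTH, went the other way at a dim level. It read 4.73 and 4.86 in empty vector, 4.81, 4.84 and 4.75 with wild type, and 4.47, 4.62 and 4.73 with T286A. T286A minus wild type was -0.20 ± 0.081 (adjusted p = 0.341), or -0.13 without T286A replicate 1. All other probe sets gave smaller differences, and 2 of the other 5 CBS probe sets had the opposite sign. A near-identical copy of CBS is listed in the reference assembly, and how specific the CBS probe sets are was not tested.

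Enzymes for asparagine and proline held small differences. ASNS, the asparagine synthetase and a classical ATF4 target, read 10.98 and 10.98 in empty vector, 11.02, 10.98 and 11.15 with wild type, and 11.16, 11.15 and 11.16 with T286A. T286A minus wild type was 0.11 ± 0.064 (adjusted p = 0.509), or 0.07 without wild-type replicate 2, and T286A minus empty vector 0.18 ± 0.072 (adjusted p = 0.365). The other 3 ASNS probe sets gave 0.11, 0.08 and 0.28 in T286A minus wild type, and the mean of all probe sets 0.14 (adjusted p = 0.322). ALDH18A1, which starts proline synthesis, read 11.14 and 11.07 in empty vector, 11.10, 11.16 and 11.08 with wild type, and 11.03, 11.01 and 11.04 with T286A. The T286A arrays were the lowest 3, at -0.09 ± 0.057 from wild type (adjusted p = 0.547). PYCR1, which finishes proline, lay below empty vector by similar amounts in both constructs (-0.25 and -0.23, adjusted p = 0.249 and 0.319). PCK2, the mitochondrial PEP carboxykinase, differed by -0.07 between the constructs.

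Of the 8 transporters limma called 0 in any comparison. At an unadjusted p under 0.05, 4 were higher with T286A than with wild type, against 7.16% of all genes. SLC7A11, the light chain of the cystine importer, read 8.91 and 8.85 in empty vector, 8.77, 8.68 and 8.47 with wild type, and 9.04, 9.08 and 9.13 with T286A. The controls lay between the constructs without overlap, and T286A minus wild type was 0.44 ± 0.083 (1.36-fold, adjusted p = 0.0595). Its other probe sets gave 0.64 and 0.25, and with all 3 averaged the difference was called (0.45, adjusted p = 0.0249). It was also called among genes at or above the median level (adjusted p = 0.0223) and with an intensity trend in the variance (0.00565).

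SLC7A5 and SLC3A2 form the leucine importer LAT1. SLC7A5 read 7.93 and 7.91 in empty vector, 7.86, 7.55 and 7.86 with wild type, and 8.08, 8.12 and 7.98 with T286A, again with the controls between the constructs. The difference was 0.30 ± 0.094 (adjusted p = 0.217), but 0.20 without wild-type replicate 2 and 0.00 in a second, dimmer probe set. SLC3A2, the heavy chain that SLC7A5 and SLC7A11 share, read 9.31 and 9.20 in empty vector, 9.03, 9.17 and 9.26 with wild type, and 9.39, 9.37 and 9.30 with T286A. The constructs did not overlap each other but both overlapped the controls' range, and the difference was 0.20 ± 0.075 (adjusted p = 0.299). All 6 other SLC3A2 probe sets had the same sign.

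SLC38A2 (SNAT2), a glutamine carrier induced by amino acid shortage, read 11.01 and 10.97 in empty vector, 10.96, 10.95 and 10.96 with wild type, and 11.04, 11.20 and 11.15 with T286A. Its difference was 0.17 ± 0.063 (adjusted p = 0.285). SLC38A1 and SLC1A5, other glutamine carriers, differed by 0.06 and 0.09. SLC7A1, the cationic amino acid carrier, and SLC1A4, a serine and alanine carrier, showed another pattern: both lay above the controls in all 6 construct arrays. SLC7A1 differed from empty vector by 0.25 with wild type and 0.26 with T286A (adjusted p = 0.193 and 0.191), and SLC1A4 by 0.28 and 0.17 (adjusted p = 0.144 and 0.432).

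The last 2 members act at the membrane and outside the cell. STC2, a secreted stress glycoprotein, read 6.08 and 6.15 in empty vector, 6.06, 5.53 and 5.72 with wild type, and 6.10, 6.52 and 6.57 with T286A. Wild type lay below all other arrays, the spread within both constructs was wide, and the difference was 0.63 ± 0.16 (adjusted p = 0.146). Its other probe sets, both dimmer, gave 0.44 and -0.16, and the mean over all of them 0.30; with an intensity trend STC2 was called (adjusted p = 0.0495). VLDLR, a lipoprotein receptor, was dim, with 4.11 and 4.50 in empty vector, 4.13, 3.93 and 4.28 with wild type, and 4.48, 4.58 and 4.43 with T286A. Its controls overlapped both constructs, and the difference was 0.38 ± 0.12 (adjusted p = 0.234).

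Each construct was then set against empty vector; these comparisons share the same 2 control arrays. With wild type, DDIT4 alone of 34 members was called (lower), against 1.74% of all genes called. At an unadjusted p under 0.05, 4 members were higher (11.8%) and 6 lower (17.6%), against 6.08% and 7.42% of all genes. With T286A limma called 0 of 34 members, against 0.532% of all genes. At the unadjusted threshold 6 members were higher (17.6%) and 2 lower (5.88%), against 5.95% and 6.15% of all genes. Other settings of limma called up to 3 members with T286A: array weights called SHMT1, and an intensity trend or a filter on dim genes called PHGDH, PSAT1 and SHMT1. With wild type the filter called SLC1A4 (higher) and the trend PPP1R15A (lower) beside DDIT4. The member medians were -0.07 with wild type and 0.11 with T286A, against 0.00 for all genes in both comparisons. With the mean of all probe sets the member medians were -0.064 and 0.0392, against 0.00619 and 0.000144 for all genes. With arrays centred on housekeeping genes they were -0.0992 and 0.0691, against -0.0248 and -0.0433 for all genes. All 11 transcription factors, effectors and feedback regulators had negative values with wild type (SESN2 at -4e-04), as did 9024 of all 18231 genes. Further probe sets of CEBPG (0.05), SESN2 (0.03) and CHAC1 (0.06) were positive there. All 8 transporters had positive values with T286A, as did 8950 of all genes. Some further probe sets of SLC7A11, SLC7A5, SLC3A2 and SLC1A4 were negative with T286A. SLC38A1 (0.02) turned negative when arrays were centred on housekeeping genes.

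**Figure D3:**
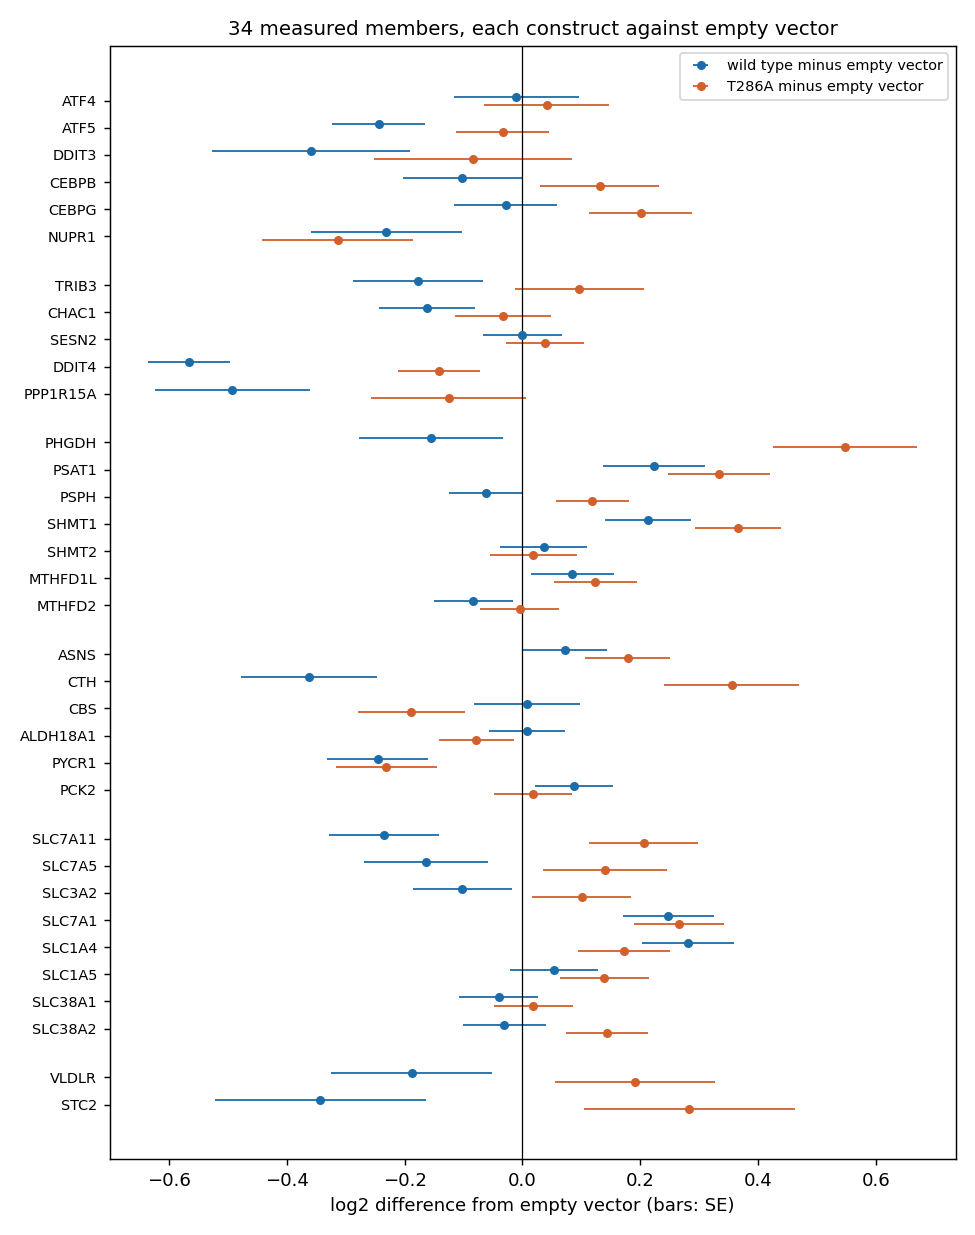
The horizontal axis gives each member's log2 difference from empty vector with wild-type cyclin D1 (blue) and with T286A (orange), bars are SE, and gaps in the rows part the roles from transcription factors at the top to VLDLR and STC2 at the bottom. CTH at -0.36 and 0.35 and SLC7A11 at -0.23 and 0.21 lie on opposite sides of 0, whereas PSAT1, SHMT1, SLC7A1 and SLC1A4 lie to the right in both.

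Opposite signs against empty vector, together with wild-type and T286A arrays that did not overlap, were found in 13 members. In 11 of them (32.4% of the members) wild type lay below and T286A above the control mean, a pattern met by 4.79% of all genes: CEBPG, TRIB3, PHGDH, PSPH, CTH, SLC7A11, SLC7A5, SLC3A2, SLC38A2, VLDLR and STC2. CBS and ALDH18A1 (5.88%, against 5.79% of all genes) had the reverse signs, but their wild-type values (both 0.01) turned negative with housekeeping centring. Only in 5 of the 13, PSPH, CTH, SLC7A11, SLC7A5 and SLC38A2, did both control arrays also lie between the constructs without overlap, which is 14.7% of the members, against 0.719% of all genes. None of the 13 was called against empty vector in either construct, so limma did not establish a change in both directions from the control level for any of them. At an unadjusted p under 0.05, CTH was lower with wild type and higher with T286A. Of the 11 with wild type below and T286A above, CTH, PHGDH and VLDLR have a single probe set. Each of the others had at least 1 further probe set without both signs. T286A lay below empty vector in further probe sets of CEBPG (-0.07), TRIB3 (-0.07), SLC7A11 (-0.19), SLC7A5 (-0.08) and SLC3A2 (-0.11, -0.06 and -0.02). Wild type lay above it in 1 of PSPH (0.17), SLC38A2 (0.33) and STC2 (0.28). Further probe sets of SLC7A11, SLC3A2, PSPH, SLC38A2 and STC2 kept both signs.

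Neighbouring parts of the response were read from other gene lists. Among 15 other known ATF4 targets, 2 were called higher and 0 lower in T286A minus wild type. At the unadjusted threshold 7 were higher and 1 lower, and the list median was 0.07. Of all genes 0.987% were called in that comparison, and 7.16% were higher and 6.46% lower at the unadjusted threshold. NIBAN1, a stress-induced regulator of translation and survival, read 9.13 and 9.18 in empty vector, 8.68, 8.63 and 8.50 with wild type, and 9.20, 9.27 and 9.30 with T286A. Wild type lay apart at the bottom. NIBAN1 was 0.65 ± 0.068 higher with T286A than with wild type (adjusted p = 0.00513), a call kept without any single array (adjusted p up to 0.0318). It fell by 0.55 with wild type against empty vector (adjusted p = 0.0139), a call lost without empty vector replicate 1 or 2 (adjusted p = 0.107 and 0.136) or in a fit of the compared groups alone (0.0754). BCAT1, the cytosolic branched-chain aminotransferase, read 9.43 and 9.39 in empty vector, 9.36, 9.15 and 9.06 with wild type, and 9.78, 9.60 and 9.78 with T286A. Its controls lay between the constructs, and the difference was 0.53 ± 0.092 (adjusted p = 0.042). Leaving out an array lost this call (adjusted p from 0.0744 to 0.149) in every case but wild-type replicate 1 (0.0358), as did the mean of all its probe sets (0.41, adjusted p = 0.121).

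The aminoacyl-tRNA synthetases, many of which are ATF4 targets, did not share the members' direction. Of 19 cytosolic synthetases limma called 0 in any comparison. In T286A minus wild type 16 of 19 differences were negative, with a median of -0.04. At an unadjusted p under 0.05, 1 was lower, against 6.46% of all genes. WARS1, the tryptophan enzyme, had the smallest p, at -0.37 with wild type and -0.43 with T286A against empty vector (adjusted p = 0.0867 and 0.0801). The 18 ER chaperone, IRE1 and ATF6 genes, which mark the other arms of the unfolded protein response, had a median of -0.16 with T286A against empty vector. In that comparison 17 of 18 were negative, 0 were called and 6 were lower at the unadjusted threshold. Of all genes 0.532% were called there, and 6.15% were lower at the unadjusted threshold. HERPUD1, an ER degradation factor, was at -0.25 with wild type and -0.27 with T286A (adjusted p = 0.124 and 0.131). In T286A minus wild type the ER list's median was -0.05, with 4 lower and 0 higher at the unadjusted threshold, against 6.46% and 7.16% of all genes.

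The remaining lists held 1 call. SESN3, a relative of SESN2 in the list of 17 amino acid sensing genes, fell with wild type by 0.80 ± 0.14 (adjusted p = 0.0273) at a level below the median of all genes. This call held without wild-type replicate 2 or 3 and was lost without any of the other 6 arrays (adjusted p from 0.0539 to 0.185) or in a fit of the compared groups alone (0.109). In the other lists limma called 0 genes in any comparison. In T286A minus wild type, counts at an unadjusted p under 0.05 were set beside 7.16% of all genes higher and 6.46% lower. Among 16 genes of the eIF2 kinases and the wider eIF2 machinery, 0 were higher and 1 was lower. The same counts were found among 15 folate and glycine genes and among 17 amino acid enzymes. Among 12 further transporters 1 was higher and 0 lower. Against empty vector, 5 folate and glycine genes were higher and 1 lower with wild type at that threshold, and 4 were higher and 1 lower with T286A. The shares of all genes were 6.08% higher and 7.42% lower with wild type, and 5.95% and 6.15% with T286A. The smallest p in these belonged to EIF2A at -0.22, FPGS at -0.29, BCAT2 at -0.35 (T286A minus wild type) and SLC7A7 at -0.36 (wild type minus empty vector).

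**Figure D4:**
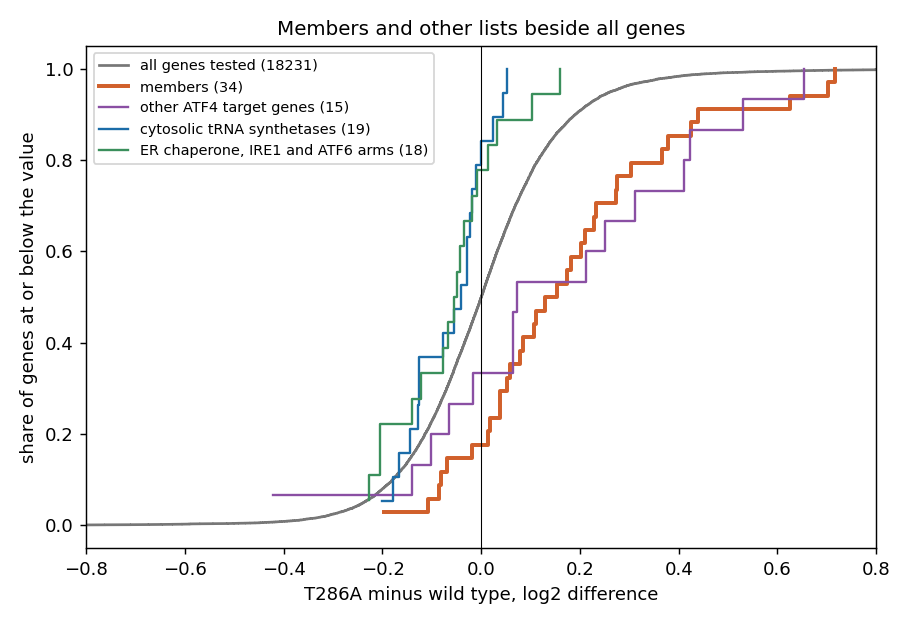
The vertical axis gives the share of genes whose log2 difference T286A minus wild type is at or below the value on the horizontal axis, for the 34 members, 3 other lists and all 18231 genes. The member curve (orange) lies to the right of all genes, with a median of 0.14, whereas the tRNA synthetase and ER lists have medians of -0.04 and -0.05.

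Members with and without the element TGATGNAA were set side by side for T286A minus wild type. Of the 9 genes that held it, 0 were called by limma, 2 were higher at an unadjusted p under 0.05 and 8 had positive values, with a median of 0.09. Of the 20 genes with windows but no match, 3 were called, 12 were higher at the unadjusted threshold and 17 were positive, with a median of 0.22. The other 5 measured members (NUPR1, PSPH, SHMT2, PYCR1 and SLC7A11, with a median of 0.01) had no window, so the element was not looked for in them. Bases outside the windows were not searched, so a gene without a match may still hold the element elsewhere. For T286A minus wild type, 0.987% of all genes were called and 7.16% were higher at the unadjusted threshold.

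Levels of plasma cell and B-cell markers also differed between the groups. The mean level of 5 plasma cell markers was 10.68 to 10.71 in the empty vector arrays, 10.76 to 10.79 with wild type and 10.50 to 10.57 with T286A, without overlap. In T286A minus wild type 1 of the 5 was called, against 0.987% of all genes. It was JCHAIN, the joining chain of secreted antibodies, at -0.64 (adjusted p = 0.00445). The others were SDC1 at -0.21, MZB1 at -0.18, PRDM1 at -0.15 and IRF4 at -0.03. In wild type minus empty vector 3 of the 5 were positive and 1 was called, against 1.74% of all genes. It was SDC1 (0.38, adjusted p = 0.0411), a call lost without any 1 of the 8 arrays (adjusted p from 0.0673 to 0.244) and with housekeeping centring (0.0561). The mean of the 5 B-cell markers was 10.65 to 10.66 in empty vector, 10.53 to 10.62 with wild type and 10.57 to 10.60 with T286A, so both constructs lay below the controls. Of these CD22 alone was called, at -0.40 in wild type minus empty vector (adjusted p = 0.0498), a call also lost without any 1 array (0.0607 to 0.251) and with housekeeping centring (0.0522). In that comparison MS4A1, CD79A, CD79B and PAX5 lay between -0.02 and 0.05. Their part in the members' differences was not tested. In these bulk samples fewer cells of a type and less RNA per cell cannot be told apart.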

How the data were processed

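RNA from 8 JVM13 samples was read on an Affymetrix human expression array. The deposited values are log2 expression; the submitters' processing notes name RMA and R 3.5.0. RMA equalises intensity distributions, so differences are relative to other genes, and background in dim probe sets shrinks them. Array medians lay between 5.47 and 5.62; precision is limited by how few arrays there are. Of 48864 probe sets, 45220 were annotated to 1 gene by the platform's table. The 8 arrays were fitted together in limma 3.58.1 (R 4.3.3; lmFit, eBayes) with a mean per group, 5 residual and 3.27 prior degrees of freedom, no filter, two-sided, over all 18231 genes; the procedure was tested on simulated data. Values are log2 differences ± SE.

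The members and gene lists were chosen with earlier results of these data known. Array values are given for members called in any comparison, for ATF4, DDIT3, TRIB3, CHAC1, ASNS and PSAT1, and for members with opposite signs against empty vector and non-overlapping constructs. From other lists, up to 3 called genes per comparison, or the gene with the smallest p, are named. CEBPB, ATF5, PPP1R15A, SHMT1 and further members are named to account for the list. Single cell type markers were named after their values were seen. Alternatives were leaving out each array, a replicate block, housekeeping centring (12 genes), a filter at the median level, the mean of all probe sets, array weights, an intensity trend and fits of the compared groups alone.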

Additional observations from a re-analysis of the deposited data

Results flagged for a closer look

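For 5 members and list genes the level differed between the constructs by the direct test of T286A against wild type (limma, adjusted p under 0.05 over all genes). All arrays received doxycycline, so the effect of induction itself was not measured. The differences (log2) were 0.42 for DDIT4, 0.70 for PHGDH, 0.72 for CTH, 0.65 for NIBAN1 and 0.53 for BCAT1, and in each gene the 3 T286A arrays lay above the 3 wild-type arrays. The plasma cell marker JCHAIN, by the same test, differed by -0.64. Groups of 2 or 3 arrays were too small for a test of single outlying arrays. By its correlations wild-type replicate 2 stood apart, as given above.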

How the results depend on the processing

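The called members and list genes, and the markers JCHAIN, SDC1 and CD22, for which the alternatives were added after seeing the data, kept their direction under every alternative run for them, but most calls did not hold throughout. Called members in T286A minus wild type numbered 3, but 0 with the replicate block, 5 with the intensity trend, and 0 to 3 when 1 array was left out. In wild type minus empty vector the 1 called member became 0 with the block or with only the compared groups, 2 with the median filter or the trend, and 0 to 1 with 1 array left out. In T286A minus empty vector 0 members became 3 with the median filter or the trend and 1 with array weights, and stayed 0 with any array left out.

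Called genes overall went from 317 for wild type minus empty vector to 71 with the block, 629 with the median filter, 726 with the trend, 68 with only the compared groups, and 22 to 196 with 1 array left out. For T286A minus empty vector 97 became 3 with the block, 527 with the filter, 190 with the mean of all probe sets, 317 with array weights, 618 with the trend, 4 with only the compared groups, and 1 to 87 with 1 array left out. For T286A minus wild type 180 became 86 with the block, 381 with the filter, 579 with the trend, and 70 to 128 with 1 array left out. The causes were not tested.

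The signs of uncalled values turned for ATF4 in T286A minus wild type without wild-type replicate 1 (-0.011; -0.011 to 0.118 over the arrays left out) and for CHAC1 with the mean of all probe sets (-0.0702). Replicate numbers did not pair the samples: same-numbered arrays deviated together with correlations of -0.0909 to 0.119 over 7 pairs. With the block the calls of DDIT4 (adjusted p = 0.0786), PHGDH (0.086) CTH (0.0506) and BCAT1 (0.0854) between the constructs were lost, as were those of DDIT4 (0.0515), NIBAN1 (0.081), SESN3 (0.0636), SDC1 (0.154) and CD22 (0.121) in wild type minus empty vector; those of NIBAN1 (0.0309) and JCHAIN (0.0306) between the constructs held. Centring on housekeeping genes turned the sign of CBS and ALDH18A1 with wild type, and of SESN2, SHMT2, PCK2 and SLC38A1 with T286A, against empty vector, and it moved the median of all genes by less than 0.1 in each comparison. Probe sets of dim members (5 of 34 below the median level) limit what can be read from them.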
